A study of Mus musculus with 11 samples.

Results

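The collagen chains measured here are the genes whose symbols read Col, a number, the letter a and a number, such as Col4a1. Of 18194 genes with a probe set of their own, 42 had such a symbol. These 42 chains lay on 82 probe sets, 27 of them on several, and the brightest probe set of each, by its mean over all 11 arrays, stood for the chain. The 42 chains were taken as 11 fibrillar chains, 8 basement membrane chains and 23 other chains. A mean above 6.866, the 0.25 quantile of all probe set means, was needed for testing, and 37 chains passed (10 fibrillar, 8 basement membrane and 19 other). Col17a1, Col24a1, Col26a1, Col6a5 and Col8a2 lay at or under that limit and were not tested, and they are no part of the counts that follow.

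RNA came from the whole pancreas of female Balb/C offspring aged 30 days. Their dams ate a diet with 20% protein (control) or an isocaloric diet with 8% protein (low protein) while pregnant, and every dam ate the control diet from birth on. The pups received streptozotocin (STZ), a toxin that enters and kills the insulin-producing β cells, at 35 mg/kg, or sodium citrate vehicle (sham), daily on days 1 to 5. Control sham, low protein sham and low protein STZ held 3 arrays each, and control STZ, the last of the 4 groups, held 2 (its replicates 1 and 3). No replicate 2 of control STZ is among the 11 samples. Neither dam nor litter is named in the sources used here, so littermates may be among the replicates and diet and litter cannot be told apart. The labels call the replicates biological.

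Collagens are the main structural proteins of the extracellular matrix, and each molecule is a helix of 3 chains. Fibrillar collagens, types I, III and V among them, form the fibres of septa, ducts and vessel walls, and are made mostly by fibroblasts and stellate cells. Type IV collagen forms the sheet under epithelium and around capillaries and islets, where endothelial and mesenchymal cells supply much of it. Type VI collagen forms beaded filaments that lie between fibres and basement membranes.

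The arrays carried the transcripts of pancreas: Cpa1, a digestive enzyme of acinar cells, ranged from 15.02 to 15.81, and Ins2, which encodes insulin, from 12.89 to 15.24 on the log2 scale. Array medians lay between 7.92 and 7.97. Correlations between arrays over all genes were 0.9828 to 0.9946 within groups and 0.9778 to 0.9944 between groups. All values below are log2 signals, and since a probe set's brightness depends on its sequence, levels were compared between arrays and never between genes. In bulk tissue, fewer cells of a type and less RNA per cell cannot be told apart.

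The upstream sequences of the chains with the widest differences show how unlike the starts of these genes are. RefSeq promoter windows (build GRCm38.p6) matched 33 of the 42 chains, with 36 windows in all. Col12a1, Col14a1, Col1a1, Col22a1, Col26a1, Col2a1, Col4a3, Col5a2 and Col9a3 had no entry. The 250 bases before the start are shown for Col3a1 (chr1:45311288-45311537, plus strand) and Col1a2 (chr6:4505368-4505617, plus strand), fibrillar chains whose signals followed each other across the arrays. Capitals mark TATAAA (the letters of a TATA box), CCAAT and GGGCGG (the letters of a GC box), and no matches overlapped in these windows. The search covered both strands and any position in the 250 bases, so a match need not be a working element.
Col3a1: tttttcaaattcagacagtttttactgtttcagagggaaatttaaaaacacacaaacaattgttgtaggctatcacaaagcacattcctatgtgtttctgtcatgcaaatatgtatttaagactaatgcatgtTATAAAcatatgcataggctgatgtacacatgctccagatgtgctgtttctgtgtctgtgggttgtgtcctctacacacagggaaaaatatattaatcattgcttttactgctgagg
Col1a2: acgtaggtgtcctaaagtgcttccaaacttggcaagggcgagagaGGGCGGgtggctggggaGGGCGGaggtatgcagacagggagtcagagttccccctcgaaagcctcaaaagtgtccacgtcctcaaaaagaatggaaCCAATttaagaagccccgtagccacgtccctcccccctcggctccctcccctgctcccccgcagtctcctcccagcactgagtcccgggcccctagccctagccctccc

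The Col3a1 window held 1 TATAAA, beginning 117 bases before the start, and neither other motif. The Col1a2 window held CCAAT at 109 bases and GGGCGG at 188 and 205 bases before the start, and no TATAAA. Of the 36 windows of collagen chains, 5 held TATAAA (13.9%, against 12.4% of all 32851 windows), 13 held CCAAT (36.1% against 33.8%) and 21 held GGGCGG (58.3% against 32.7%). These matches describe letters and were not tested.

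Col4a1 and Col4a2, whose chains join in the commonest type IV collagen, lie head to head on chromosome 8. The window of Col4a2 starts its transcript at base 11312805 on the plus strand, and that of Col4a1 at base 11312826 on the minus strand, so that the transcribed parts share 22 bases (chr8:11312805-11312826). The stretch is shown on the plus strand because it belongs to both genes, with its GGGCGG in capitals.
Col4a1 and Col4a2: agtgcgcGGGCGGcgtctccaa

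Upstream of its start, Col4a2 held 1 CCAAT and 2 GGGCGG, and Col4a1 held 1 CCAAT and no GGGCGG. Neither held TATAAA.

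Across the 11 arrays most chains varied little. The range from the lowest to the highest array was under 0.5 for 23 of the 37 tested chains, from 0.5 to 1 for 11 and at least 1 for 3, with a median of 0.41 against 0.43 over all 15897 genes tested. The 3 chains with the widest range were Col3a1 (1.78), Col4a1 (1.33) and Col4a2 (1.13). Control sham had the highest group mean for 22 of the 37 chains (59.5%, against 33.7% of all genes), made up of 8 of 10 fibrillar, 5 of 8 basement membrane and 9 of 19 other chains.

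Col3a1, the single chain of type III collagen, read 12.56, 12.80 and 13.49 on the control sham arrays and 12.44 and 12.34 on the control STZ arrays. It read 12.37, 12.16 and 11.78 on the low protein sham arrays and 11.71, 11.85 and 12.65 on the low protein STZ arrays. Control sham 3 was highest and low protein STZ 1 lowest, and all 3 control sham arrays lay above all control STZ and all low protein sham arrays. Low protein STZ 3 overlapped the control sham group. The group means were 12.95 ± 0.48 (SD) in control sham, 12.39 ± 0.07 in control STZ, 12.10 ± 0.30 in low protein sham and 12.07 ± 0.50 in low protein STZ.

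The chains of type I collagen had the same array on top. Col1a1, its α1 chain, read 9.43, 9.29 and 9.86 in control sham, 9.42 and 9.37 in control STZ, 9.49, 9.42 and 9.05 in low protein sham, and 9.43, 9.25 and 9.52 in low protein STZ. All groups overlapped, and control sham 3 stood above the rest. Col1a2, its α2 chain, read 10.00, 9.98 and 10.54 in control sham against 9.91 and 9.86 in control STZ, which did not overlap. It read 10.01, 9.79 and 9.68 in low protein sham and 9.80, 9.82 and 10.25 in low protein STZ, which both overlapped control sham. Means of Col1a2 were 10.18 ± 0.32, 9.88 ± 0.03, 9.83 ± 0.17 and 9.96 ± 0.25 in control sham, control STZ, low protein sham and low protein STZ.

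Type V collagen sits inside type I fibrils and limits their width. Col5a2 read 10.16, 10.28 and 10.53 in control sham, 10.12 and 10.12 in control STZ, 10.12, 9.98 and 9.97 in low protein sham, and 9.97, 10.06 and 10.20 in low protein STZ. Each control sham array was above every control STZ and low protein sham array. Its partners differed less: Col5a1 ranged by 0.53 over the arrays and Col5a3 by 0.22, and both were highest on control sham 3. Altogether 6 of 10 fibrillar chains (Col1a1, Col1a2, Col3a1, Col5a1, Col5a2 and Col5a3) had their highest value on control sham 3, and Col11a2, Col27a1 and Col2a1 had theirs on control sham 2. The chains of cartilage and of minor fibrils, Col2a1, Col11a1, Col11a2 and Col27a1, ranged by 0.26 to 0.39.

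**Figure D1:**
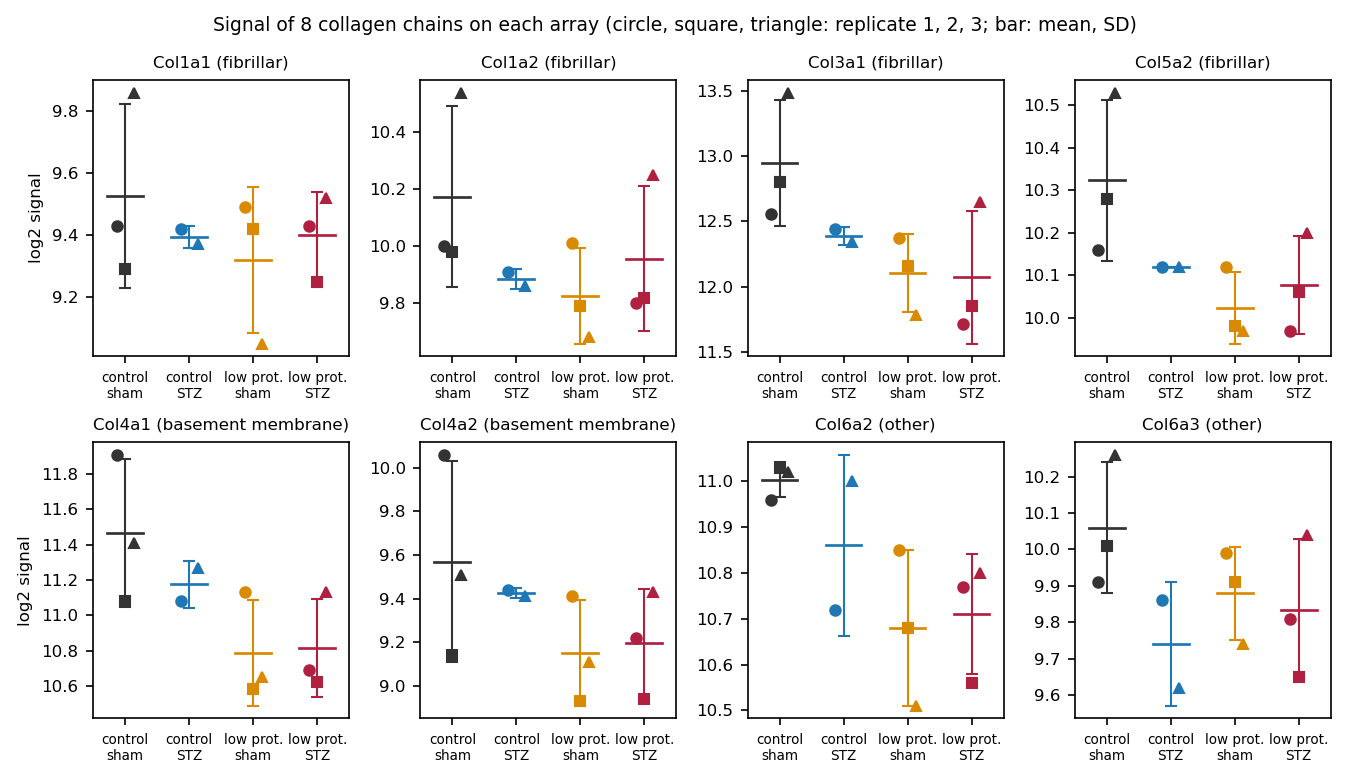
Log2 signal (y axis) of 8 collagen chains, 1 panel each, in the 4 groups (x axis). Points are single arrays, horizontal lines are group means and vertical bars are SD (n = 3, or 2 for control STZ). Fibrillar chains were highest on control sham 3, while Col4a1 and Col4a2 were highest on control sham 1.

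Col4a1, Col4a2 and Col15a1, 3 of the 8 basement membrane chains, were highest on control sham 1, while the other 5 had their highest values on 4 other arrays. Col4a1 read 11.91, 11.08 and 11.41 in control sham, 11.08 and 11.27 in control STZ, 11.13, 10.58 and 10.65 in low protein sham, and 10.69, 10.62 and 11.13 in low protein STZ. Control sham 1 was highest, and control sham 2 lay no higher than the highest array of each other group. Means were 11.47 ± 0.42, 11.17 ± 0.13, 10.79 ± 0.30 and 10.81 ± 0.28 in control sham, control STZ, low protein sham and low protein STZ.

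Col4a2 read 10.06, 9.14 and 9.51 in control sham, 9.44 and 9.41 in control STZ, 9.41, 8.93 and 9.11 in low protein sham, and 9.22, 8.94 and 9.43 in low protein STZ. As for Col4a1, control sham 1 stood highest and all groups overlapped control sham. The rarer type IV chains Col4a3, Col4a4, Col4a5 and Col4a6 ranged by 0.35, 0.22, 0.66 and 0.29. Col4a4 and Col4a5 had means of 6.88 and 6.93, just above the limit for testing.

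Col15a1 and Col18a1, collagens of the basement membrane zone, differed by little. Col15a1 had group means between 9.43 and 9.53, and the Col18a1 means were 9.0 ± 0.08 in control sham, 9.13 ± 0.11 in control STZ, 9.03 ± 0.04 in low protein sham and 8.96 ± 0.12 in low protein STZ. Col18a1 was highest on control STZ 1.

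The chains of type VI collagen were among the wider ranging of the other class. Col6a2 read 10.96, 11.03 and 11.02 in control sham and 10.85, 10.68 and 10.51 in low protein sham, which did not overlap. It averaged 10.86 ± 0.19 over the control STZ arrays, replicate 1 lying below and replicate 3 inside the control sham range, and read 10.77, 10.56 and 10.80 in low protein STZ. The control sham arrays of Col6a2 lay close together (SD 0.03, against 0.48 for Col3a1).

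Col6a3 read 9.91, 10.01 and 10.26 in control sham, 9.86 and 9.62 in control STZ, 9.99, 9.91 and 9.74 in low protein sham, and 9.81, 9.65 and 10.04 in low protein STZ. Both control STZ arrays lay below all control sham arrays. Col6a1 read 9.91, 9.81 and 10.21 in control sham, 9.80 and 9.84 in control STZ, 9.98, 9.67 and 9.67 in low protein sham, and 9.70, 9.54 and 9.65 in low protein STZ. The low protein STZ arrays of Col6a1 lay below both control STZ arrays and below all control sham arrays.

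Among the remaining chains, Col14a1, a fibril-associated collagen, ranged most (0.72) and was highest on control sham 3 (9.16). Col7a1, which makes the anchoring fibrils of epithelium, was highest on control sham 1 (10.07), with all other arrays between 9.51 and 9.81. Col12a1 and Col16a1, also fibril-associated, had their lowest group means in control sham (8.44 ± 0.06 and 8.93 ± 0.20), and so did Col9a1 (8.85 ± 0.16). Col8a1, a short-chain collagen of vessel walls, had means of 7.75 ± 0.12 in control sham, 7.89 ± 0.00 in control STZ, 7.88 ± 0.03 in low protein sham and 7.75 ± 0.07 in low protein STZ. The smallest range was 0.20, seen for Col9a2 and Col9a3.

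**Figure D2:**
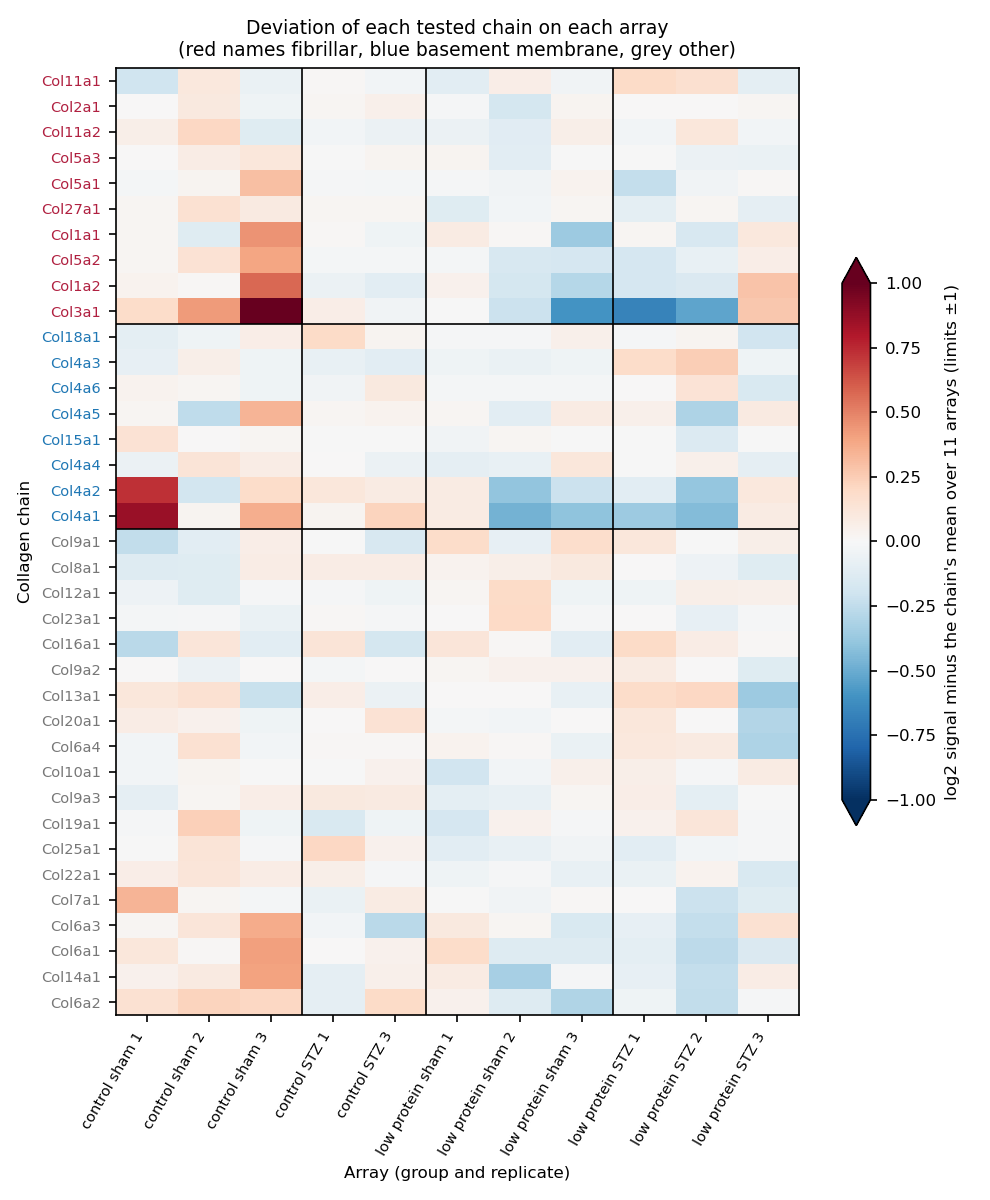
Heat map of the 37 tested chains (rows, by class) over the 11 arrays (columns, by group), coloured by log2 signal minus the chain's own mean over all arrays and limited to 1 in either direction. Control sham 3 is highest for 6 of 10 fibrillar chains and control sham 1 for 3 of 8 basement membrane chains.

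Whether chains that assemble together had signals that moved together was described over the 11 arrays for 8 pairs, with permutation p-values (100000 resamples, two-sided) adjusted by Benjamini-Hochberg over the 8. These arrays span 4 groups and share the arrays noted above, so the values describe these arrays. Col4a1 and Col4a2 had Pearson's r = 0.94 (permutation p = 9e-05, adjusted 0.00072) and Spearman's rho = 0.88 (p = 0.00065, adjusted 0.00472). Without control sham 1 and low protein sham 2, the arrays farthest from the median of Col4a1, r was 0.84, and it was 0.94 for deviations from group means. In each pair below, the arrays left out are likewise those farthest from the median of the chain named first.

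Col1a2 and Col3a1 had r = 0.90 (permutation p = 0.00025, adjusted 0.001) and rho = 0.86 (p = 0.00118, adjusted 0.00472), and r was 0.83 without control sham 3 and low protein STZ 3. Col1a1 and Col1a2 had r = 0.87 (permutation p = 0.00055, adjusted 0.00147) and rho = 0.77 (p = 0.00695, adjusted 0.0185), but r was 0.55 without control sham 3 and low protein sham 3. Col1a1 and Col3a1 had r = 0.76 (permutation p = 0.0114, adjusted 0.0182) and rho = 0.53 (p = 0.0951, adjusted 0.127). Without control sham 3 and low protein sham 3, the outermost arrays for Col1a1, their r was 0.21, so the relation over all arrays rested on those 2, while r was 0.79 for deviations from group means over all 11.

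Type VI chains were less alike. Col6a1 and Col6a2 had r = 0.73 (permutation p = 0.00892, adjusted 0.0178) and rho = 0.75 (p = 0.00988, adjusted 0.0198), with r = 0.62 without control sham 3 and low protein STZ 2. Col6a1 and Col6a3 had r = 0.66 (permutation p = 0.027, adjusted 0.0309) and rho = 0.35 (p = 0.286, adjusted 0.286), and r was 0.09 without the same arrays. Col6a2 and Col6a3 had r = 0.50 (permutation p = 0.116, adjusted 0.116) and rho = 0.49 (p = 0.129, adjusted 0.147), with r = 0.21 without low protein sham 3 and low protein STZ 2. Thus 1 of the 3 type VI pairs kept an r above 0.5 without the outermost arrays of its first-named chain.

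Col3a1 and Col4a1, from different classes, had r = 0.67 (permutation p = 0.0236, adjusted 0.0309) and rho = 0.65 (p = 0.0342, adjusted 0.0547). Without control sham 3 and low protein STZ 1, r was 0.66. For deviations from group means r was 0.27, against 0.96 for Col1a2 and Col3a1, 0.94 for Col4a1 and Col4a2, 0.86 for Col1a1 and Col1a2, and 0.38 to 0.62 for the type VI pairs. These values of r were not tested against each other.

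**Figure D3:**
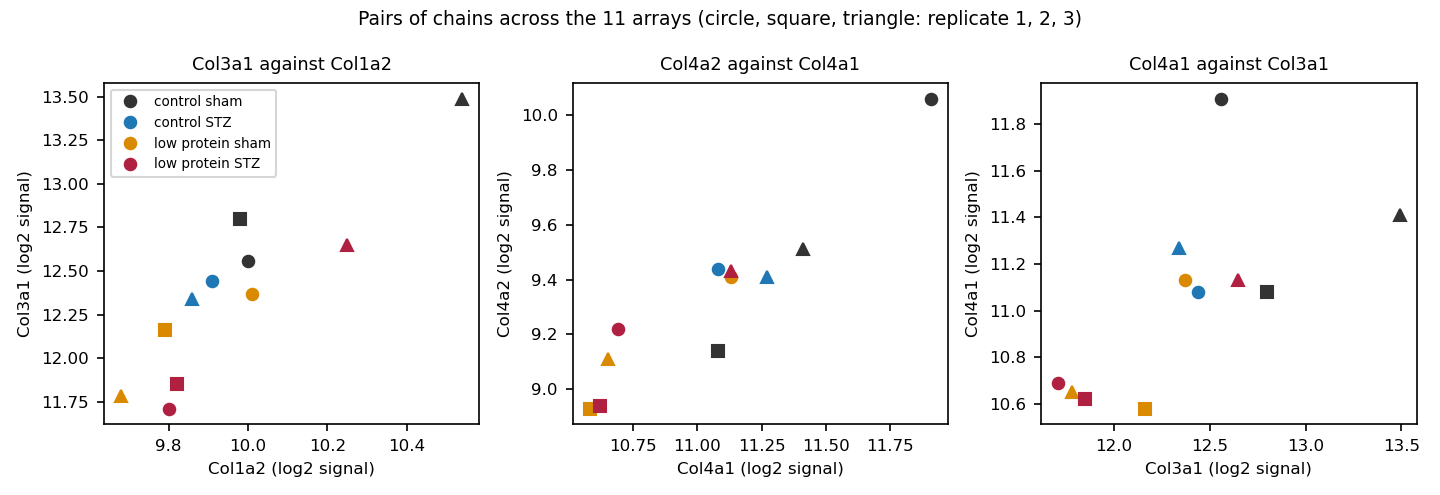
Log2 signals of Col1a2 against Col3a1, Col4a1 against Col4a2 and Col3a1 against Col4a1, each point 1 of the 11 arrays, coloured by group. The first 2 pairs have r of 0.90 and 0.94, and the third, whose highest arrays are control sham 3 for Col3a1 and control sham 1 for Col4a1, has r of 0.67.

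The groups were compared in 1 linear model over all 15897 genes (limma, two-sided, Benjamini-Hochberg adjustment over all of them). The comparisons are 4 pairwise ones, the STZ and diet differences averaged over the other factor, and the change of the STZ effect with diet. In each of these 7 comparisons limma called 0 genes at an adjusted p under 0.05 (0% of genes tested), 0 collagen chains among them, so the differences below are sizes with their standard errors (SE) that did not pass. Comparisons of control STZ and of low protein sham with control sham use the same control sham arrays and are not independent.

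The comparison of diets in sham animals asks what a low protein diet in gestation left in the pancreas at 30 days. Of 37 collagen chains, 29 had lower means in low protein sham pancreas (78.4%, against 57.7% of all genes), with a median log2 difference of -0.08 against -0.02 (-0.04 without control sham 2). Of the fibrillar chains 9 of 10 were lower (median -0.12), of basement membrane chains 7 of 8 (-0.05) and of other chains 13 of 19 (-0.05). At an unadjusted p under 0.05, 4 chains were lower (Col3a1, Col5a2, Col4a1 and Col6a2) and 0 higher, with a background of 7.22% of all genes lower and 3.2% higher.

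Col3a1 was 1.80-fold lower in low protein sham than in control sham pancreas (log2 difference -0.85 ± 0.28 SE, n = 3 and 3; limma adjusted p = 0.301). Without control sham 3 the difference was -0.58, without control sham 1 it was -1.04, and with a covariate for the hybridisation controls, foreign transcripts spiked into every sample, it was -0.49. A second probe set of Col3a1 gave -0.38, below 0 as well. Col5a2 differed by -0.30 ± 0.10 (1.23-fold lower; limma adjusted p = 0.321), and by -0.19 without control sham 3 and -0.17 with the covariate.

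Col4a1 was 1.60-fold lower (-0.68 ± 0.22; limma adjusted p = 0.291), and Col4a2 differed by -0.42 ± 0.21 (1.34-fold lower; adjusted p = 0.535). The Col4a1 value was -0.46 and the Col4a2 value -0.18 without control sham 1, and -0.87 and -0.64 without control sham 2. The other Col4a1 probe set, also well above the limit (mean 10.66), gave -0.19, so the size for Col4a1 depended on the probe set. Col6a2 differed by -0.32 ± 0.11 (1.25-fold lower; limma adjusted p = 0.315), and its other probe set gave -0.04.

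Col14a1 differed by -0.26 ± 0.13 (limma adjusted p = 0.532), while its other probe set of like brightness gave 0.24, so that no direction can be given for it. All 3 low protein sham arrays lay below all 3 control sham arrays for 5 of 37 chains (Col22a1, Col25a1, Col3a1, Col5a2 and Col6a2), or 13.5%, against 10.2% of all genes. They lay above for Col9a2 alone, against 5.57% of all genes. These shares of chains are near the background.

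Other measures differed between the same groups. The mesenchymal markers (9 of 9 tested) averaged 8.68 to 9.08 in control sham, 8.83 to 8.88 in control STZ, 8.69 to 8.84 in low protein sham and 8.68 to 8.75 in low protein STZ arrays, with 6 of 9 lower in low protein sham. The median difference of these 9 markers was -0.05, and 3 were higher. Vim, the intermediate filament of mesenchymal cells, differed by -0.93 ± 0.25 (limma adjusted p = 0.224), but Des by 0.22 ± 0.10 and Pdgfrb by 0.07. Of 6 tested smooth muscle and pericyte markers 4 were lower (median -0.07), with Rgs5 at -0.61 ± 0.15 (limma adjusted p = 0.209) but the pericyte marker Cspg4 at 0.08 and Lmod1 at 0.13. Endothelial markers (9 of 9 tested) averaged 8.49 to 8.58, 8.42 to 8.53, 8.19 to 8.38 and 8.29 to 8.42 in the same order of groups. In low protein sham 9 of 9 were lower (median -0.16), with Cd34 at -0.68 ± 0.20 but Pecam1 at -0.06 and Cdh5 and Eng at -0.04 each. Of 5 tested acinar markers, which averaged 15.67 to 15.75 in control sham and 15.28 to 15.32 in low protein sham, 5 were lower. All 6 islet markers were lower too (median -1.33), averaging 11.77 to 12.45 in control sham and 10.18 to 11.42 in low protein sham. The hybridisation controls averaged 11.64 to 12.16 in control sham and 11.47 to 11.76 in low protein sham. The part of these measures in the collagen values, beyond the covariate, was not tested.

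Within the control diet, STZ and sham animals were compared to ask what the toxin left. Most fibrillar chains had lower means after STZ: 8 of 10 were lower (median -0.10), with 6 of 8 basement membrane chains (-0.06) and 9 of 19 other chains (0.01). Over all 37 chains 23 were lower (median -0.06), against 49.3% of all genes (median 0.00). The fibrillar median was -0.05 without control sham 3 and -0.14 without control sham 1, and the basement membrane median was -0.01 without control sham 1. At an unadjusted p under 0.05 there was 1 chain, Col6a3, lower, with 2.13% of all genes lower and 1.92% higher.

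Col6a3 differed by -0.32 ± 0.14 (1.24-fold lower, 2 STZ and 3 sham arrays; limma adjusted p = 0.999), by -0.20 without control STZ 3 and by -0.43 without control STZ 1. Col3a1 differed by -0.56 ± 0.31 (1.47-fold lower; limma adjusted p = 0.999), by -0.29 without control sham 3 and by -0.75 without control sham 1. Col5a2 differed by -0.20 ± 0.11, by -0.09 without control sham 3 and by -0.28 without control sham 1. Col4a1 differed by -0.29 ± 0.24, by -0.07 without control sham 1 and by -0.49 without control sham 2, while its other probe set gave 0.10. All 4 kept their direction with each array left out, and their sizes depended on single arrays.

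Values above those of sham were small: Col18a1 differed by 0.13 ± 0.09 and Col8a1 by 0.14 ± 0.08 (limma adjusted p = 0.999 each), and other probe sets of both genes gave values at or below 0 (-0.08 for Col18a1). For 6 of 37 chains (Col15a1, Col1a2, Col22a1, Col3a1, Col5a2 and Col6a3), or 16.2%, neither STZ array reached the lowest sham array, against 7.72% of all genes. Some separations were narrow: the higher STZ array read 9.47 for Col15a1 and 8.09 for Col22a1, and the lowest sham array 9.48 and 8.10. Another Col22a1 probe set above the limit gave 0.20, while those of Col1a2 and Col3a1 gave -0.19 and -0.52. Both STZ arrays exceeded every sham array for Col9a3 alone, against 8.64% of all genes. Whether these shares differ from the background was not tested. The 6 islet markers were all lower after STZ in these arrays, averaging 11.77 to 12.45 in control sham and 10.67 to 10.75 in control STZ.

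In offspring of low protein dams the chains showed no common direction after STZ. Lower means were seen for 19 of 37 chains (median 0.00), against 57.6% of all genes (median -0.02): 4 of 10 fibrillar (0.05), 3 of 8 basement membrane (0.01) and 12 of 19 other chains (-0.03). At an unadjusted p under 0.05 there were 0 chains, against 1.91% of genes lower and 0.679% higher. Col4a3, a chain of the glomerular and alveolar type IV network, had the smallest p (0.18 ± 0.08, 3 and 3 arrays; limma adjusted p = 1), and its other probe set gave -0.15. Col11a1 differed by 0.12 ± 0.10, Col2a1 by 0.07 ± 0.07, Col18a1 by -0.07 ± 0.08, Col8a1 by -0.12 ± 0.07 and Col10a1 by 0.10 ± 0.07. The arrays did not overlap for Col8a1 alone, which was lower (background 5.14%), and for 0 chains that were higher (2.6%).

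Among STZ-injected animals, the diet comparison gave -0.36 ± 0.24 for Col4a1, -0.05 ± 0.11 for Col5a2 and -0.15 ± 0.12 for Col6a2. Lower means in low protein STZ were seen for 25 of 37 chains (median -0.05), against 62.3% of all genes (-0.04): 6 of 10 fibrillar (-0.03), 6 of 8 basement membrane (-0.06) and 13 of 19 other chains (-0.05). Col3a1 differed by -0.32 ± 0.31 (limma adjusted p = 0.799), and its direction turned with cyclic loess scaling (0.08) and with the hybridisation control covariate (0.18). With single arrays left out it ran from -0.61 (without low protein STZ 3) to -0.14 (without low protein STZ 1). Col4a3 differed by 0.22 ± 0.09 (1.16-fold higher; limma adjusted p = 0.488) with its other probe set at -0.15. Col25a1, a membrane-bound collagen, differed by -0.18 ± 0.08 (1.13-fold lower; limma adjusted p = 0.526), and by -0.10 without control STZ 1.

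Those were the chains at an unadjusted p under 0.05 in this comparison, 1 lower and 1 higher, against 7.79% of genes lower and 1.7% higher. Col18a1 differed by -0.17 ± 0.09 (-0.09 without control STZ 1), Col8a1 by -0.14 ± 0.08 and Col27a1 by -0.07 ± 0.08, and for the last 2 the mean over probe sets had the opposite sign. The arrays did not overlap for 6 of 37 chains that were lower (16.2%, against 16.8% of genes) and for 2 that were higher, Col19a1 and Col4a3 (7.48% of genes). The share that was lower is near the background.

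**Figure D4:**
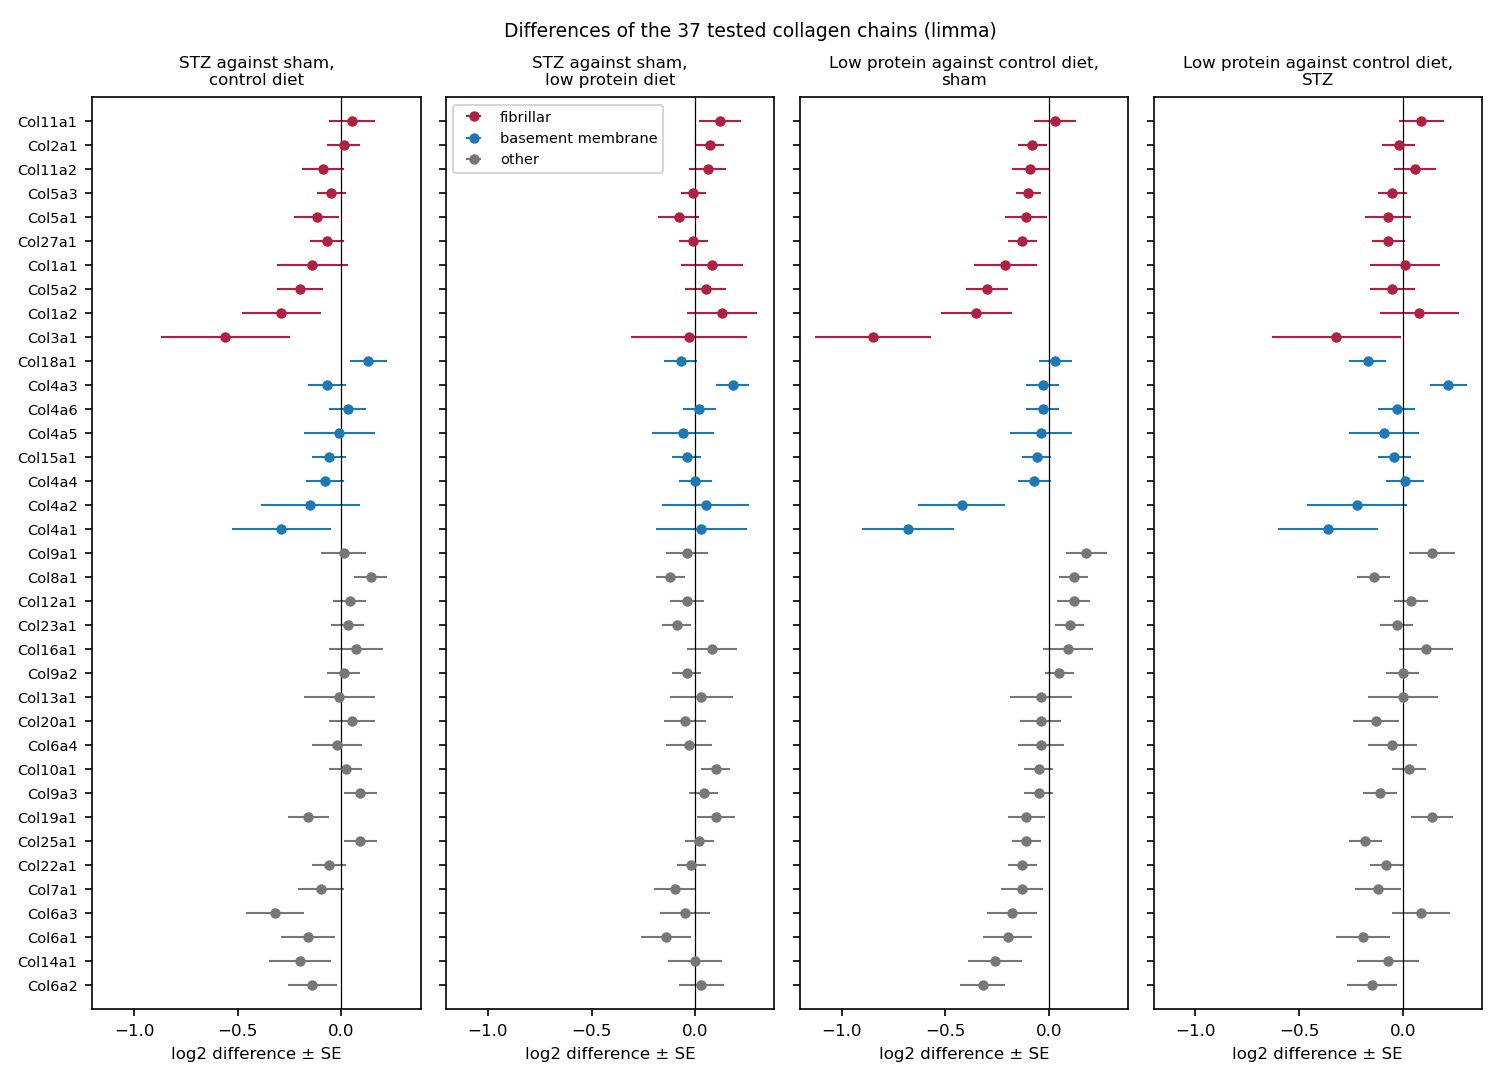
Log2 difference with its standard error (limma) for the 37 tested chains in the 4 pairwise comparisons, coloured by class. Points left of 0 are lower in the group named first. Col3a1 (-0.85) and Col4a1 (-0.68) in the diet comparison of sham animals lie farthest from 0, and no chain passed over all genes.

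Averaged over both injections, the diet comparison rests on 6 low protein and 5 control arrays. Here 29 of 37 chains were lower (median -0.06), against 62.2% of all genes (median -0.03), and 6 were lower at an unadjusted p under 0.05 (Col3a1, Col5a2, Col4a1, Col6a2, Col25a1 and Col6a1; background 11.7% lower, 3.65% higher). Col4a1 was 1.43-fold lower (-0.52 ± 0.16; limma adjusted p = 0.164), Col3a1 1.5-fold lower (-0.58 ± 0.21; adjusted p = 0.217) and Col6a2 1.18-fold lower (-0.24 ± 0.08; adjusted p = 0.204). Their other probe sets gave smaller differences: -0.28 for Col4a1, -0.26 for Col3a1 and -0.02 for Col6a2. Col4a2 differed by -0.32 ± 0.16 (-0.20 without control sham 1), Col5a2 by -0.17 ± 0.08 and Col25a1 by -0.14 ± 0.05. With array weights, by which limma gives arrays that deviate from their group less say, 3 chains passed: Col4a1 (-0.61 ± 0.13; adjusted p = 0.026), Col3a1 (-0.80 ± 0.17; adjusted p = 0.0284) and Col6a2 (-0.31 ± 0.08; adjusted p = 0.0489). The weights ran from 0.41 for low protein STZ 3, the highest low protein array of Col3a1, to 3.43 for low protein STZ 2. Control sham 3, the highest Col3a1 array of all, had 1.49. In that fit 5.01% of all genes passed, and in the same fit of diet in sham animals 0.044% of genes and 0 chains did. Over 22 alternatives the limma adjusted p ranged from 0.026 to 0.621 for Col4a1, from 0.0284 to 0.931 for Col3a1 and from 0.0489 to 0.816 for Col6a2. Array weights were the 1 alternative under which these chains passed. The highest values came with the hybridisation control covariate for Col4a1 and Col3a1, and with cyclic loess scaling for Col6a2. That covariate also turned the direction of Col3a1 in STZ-injected animals, where the controls read 11.81 and 12.09 on control and 11.13 to 11.67 on low protein arrays.

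Averaged over both diets, STZ showed less: 26 of 37 chains were lower (median -0.03, against 54.1% of all genes), and 0 reached an unadjusted p under 0.05 (background 2.38% lower, 0.856% higher). Col3a1 differed by -0.29 ± 0.21 (limma adjusted p = 0.999), and by -0.16 without control sham 3, Col6a3 by -0.18 ± 0.09 and Col6a1 by -0.15 ± 0.09. Col5a1 differed by -0.10 ± 0.07, Col4a3 by 0.06 ± 0.06 and Col15a1 by -0.05 ± 0.05.

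Whether the STZ effect depended on the dams' diet was tested by subtracting the effect in control offspring from that in low protein offspring. On the probe sets used, the difference was above 0 for each of the 10 tested fibrillar chains (median 0.11). Below 0 were 12 of all 37 chains (median 0.04) and 55% of all genes (median -0.02). Other fibrillar probe sets above the limit were not all above 0: Col5a3 gave -0.18, and Col5a1 gave 0.01 and -0.04. Those of Col1a1, Col1a2, Col3a1 and Col27a1 gave 0.25, 0.31, 0.24 and 0.18. The control sham arrays, highest on average for 8 of 10 fibrillar chains, enter this difference, and no chain passed (limma adjusted p = 1). Col1a2 differed by 0.43 ± 0.25 (0.24 without control sham 3), Col5a2 by 0.25 ± 0.15, Col19a1 by 0.25 ± 0.14, Col4a3 by 0.24 ± 0.12 and Col18a1 by -0.20 ± 0.12. The other probe sets above the limit gave 0.03 for Col19a1, -0.17 for Col4a3 and -0.02 for Col18a1. Col8a1, at -0.26 ± 0.11, was the 1 chain at an unadjusted p under 0.05 (background 2.21% of genes below 0 and 1.35% above), and its other probe sets, the second of them under the limit, gave 0.14 and 0.27.

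Genes that make, cut, bind or organise collagen, or inhibit its cutting, were counted in the diet comparison of sham animals. There 57.7% of all genes were lower, and 0 passed. Of 27 tested collagen biosynthesis genes (33 listed), 19 were lower (median -0.08). P4hb, a subunit of prolyl hydroxylase and a general folding enzyme of the endoplasmic reticulum, read 15.11, 14.97 and 15.02 in control sham and 14.46, 14.25 and 14.45 in low protein sham, which did not overlap (-0.65 ± 0.20; limma adjusted p = 0.258). Plod2, a lysyl hydroxylase, differed by -0.23 ± 0.08 (adjusted p = 0.349).

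Of 16 tested genes of the degradation list (19 listed), 14 were lower (median -0.09), among them Timp3, an inhibitor of metalloproteinases (-0.46 ± 0.15; limma adjusted p = 0.285), and Pepd, which cleaves proline dipeptides (-0.27 ± 0.09; adjusted p = 0.301). The list mixes enzymes with their inhibitors, so its count gives no direction for degradation. The other inhibitors, Timp1, Timp2 and Timp4, differed by 0.02, -0.15 and -0.06. Of 7 tested receptors (9 listed), 5 were lower (median -0.10), with the collagen receptor kinase Ddr2 at -0.16 ± 0.06. Fibril organisers were lower for 10 of 15 tested (18 listed; median -0.05), and the proteoglycan Bgn (-0.50 ± 0.13; limma adjusted p = 0.209) and the collagen chaperone Sparc (-0.62 ± 0.22; adjusted p = 0.334) led. Genes of TGF beta signalling, a known inducer of collagen transcription, were lower for 10 of 15 tested and higher for 5 (16 listed; median -0.15). Smad2 differed by -0.19 ± 0.08, and the ligands Tgfb1, Tgfb2 and Tgfb3 by 0.06, 0.00 and -0.10.

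Partners of type IV collagen in the basement membrane did not share a direction: 7 of 16 tested were lower and 9 higher (17 listed; median 0.00). Lama5, the laminin α5 chain, read 9.85, 9.87 and 9.96 in control sham and 10.50, 10.33 and 10.28 in low protein sham, which did not overlap (0.48 ± 0.15; limma adjusted p = 0.292). Agrn, a heparan sulphate proteoglycan, differed by -0.25 ± 0.08 (adjusted p = 0.256). In the STZ-injected animals 14 of 16 partners were lower in the low protein group, with Nid1, which links laminin to type IV collagen, at -0.64 ± 0.18 (adjusted p = 0.348) and Lama5 at 0.44 ± 0.17.

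After STZ in control offspring the same lists had medians from -0.06 to 0.09. The lists counted 14 of 27 biosynthesis genes, 14 of 16 genes of the degradation list, 2 of 7 receptors, 4 of 16 basement membrane partners, 9 of 15 fibril organisers and 8 of 15 TGF beta axis genes as lower. The inhibitors Timp1, Timp2, Timp3 and Timp4 were among the lower genes of the degradation list (-0.07, -0.21, -0.28 and -0.05). Bgn differed by -0.26 ± 0.14 and Lamb2, the laminin β2 chain, by 0.25 ± 0.12 (limma adjusted p = 0.999 each).

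Organisers also differed among the control sham arrays. The mean of the fibril organisers was 8.81 on control sham 1, the lowest of all 11 arrays, and 9.41 on control sham 3, the highest, with Sparc at 10.77, 11.13 and 11.67 on control sham 1, 2 and 3. The mesenchymal markers likewise averaged 8.68, 9.0 and 9.08, and Vim read 10.08, 10.94 and 11.05. On control sham 1, Col4a1 and Col4a2 were at their highest of all arrays and the mean of the organisers was at its lowest. Single organisers differed from that mean, with Bgn reading 10.55 on control sham 1, above every array but control sham 3 (10.92). The part of any cell type in this split was not tested.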

How the data were processed

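Biotin-labelled RNA from whole pancreas was hybridised to 11 Affymetrix arrays. For each probe set the authors deposited a log2 signal. Per the submitters' processing notes, the tools were RMA and Partek 6.5, named with neither role nor order, and the genome build is not given in the sources used here. Of 45101 probe sets, 34958 carried 1 gene symbol, 932 several and 9211 none, by GEO's platform annotation, and the last 2 kinds were left out. This left 18194 genes, of which 2297 at or under the limit were not tested. A model with 4 group means was fitted with limma 3.58.1 in R 4.3.3, and correlations were made with scipy 1.17.1 in Python 3.11.15. The fit was tested on simulated data. The number of arrays limits the precision, and the limma p-values set a difference against the spread between these arrays.

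Values are given for partner chains of types I, III, IV and VI, and for up to 2 chains per class and 2 genes per other list with the smallest p. Further chains given by their range, mean or highest array were picked after their values were seen. The collagen chains, classes and gene lists were chosen with earlier results of these data known. Alternatives were a replicate block, other moderation, array weights, cyclic loess, other limits for dim genes, means over probe sets, other class borders, only the groups compared, covariates for RNA integrity and hybridisation controls, and each array left out.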

Additional observations from a re-analysis of the deposited data

How the results depend on the processing

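In the comparisons of 2 groups and of their means, 0 collagen chains passed under the alternatives except array weights, under which 3 passed for diet averaged over injections. With array weights limma called 7 genes for diet in sham animals and 796 for diet averaged over injections. Leaving out 1 array at a time gave 0 to 1 genes for STZ in the control diet (1 without control sham 2), 0 to 126 for diet in sham animals (126 without low protein STZ 1), 0 to 1 for diet after STZ (1 without low protein STZ 3) and 0 to 460 for diet averaged over injections (460 without low protein STZ 3). An alternative chosen after seeing the data left out both control sham 1 and low protein STZ 1, the ends of the first principal component, and gave 56 genes for diet in sham animals and 86 averaged over injections. The causes were not tested.

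For diet after STZ, the fibrillar median was 0.06 with cyclic loess scaling and 0.06 with the hybridisation control covariate, and Col3a1 turned to 0.08 and 0.18. With the mean over probe sets of a gene, Col8a1 turned to -0.02 for STZ in the control diet, to 0.03 for STZ in the low protein diet, to 0.10 for diet after STZ and to 0.05 for the difference of STZ effects. Col27a1 turned to 0.01 for diet after STZ and Col4a3 to 0.00 for STZ averaged over diets. The basement membrane median for the difference of STZ effects was 0.14 with Col15a1 and Col18a1 among the other chains, -0.03 without both principal component arrays, and from -0.02 (without control sham 1) to 0.08 with each array left out. With 2 or 3 arrays a group, differences of the size of the array-to-array spread cannot be told from it.

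With the replicate number as a block, 0 genes were called in each comparison, as without it, and Col3a1 differed by -0.61 for STZ in the control diet. Whether the numbers pair the arrays could not be decided. For deviations from group means, r ran from -0.32 to 0.26 over 15 same-numbered pairs (5 over 0.1). Over 30 other pairs it ran from -0.45 to 0.39 (8 over 0.1). Deviations within groups this small cancel each other, which ties these values of r together, so they neither show nor exclude pairing.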
